A study of Mus musculus with 7 samples.

Results

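The genes described here are the nuclear-encoded subunits of oxidative phosphorylation, read in embryonic mouse ventricles with and without Hand1. Members were taken by gene name alone: NADH dehydrogenase (Nduf) subunits, Sdha to Sdhd, Uqcr and Cyc1, Cox4 to Cox8, Atp5 and Cycs, without named pseudogenes. The rule gave 83 of the 13701 genes in the deposited table, and all 83 had enough counts to be tested. Complex I held 36 of them, complex II 4, complex III 9, complex IV 16 and complex V 17, with cytochrome c as the remaining gene. The name rule left out Ndufab1 and took in Cox7a2l, a factor of respiratory supercomplexes, and Atp5s and Atp5sl, which RefSeq now lists as Dmac2l and Dmac2 and which are not core subunits of the ATP synthase.

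Oxidative phosphorylation takes place in the inner mitochondrial membrane. Complexes I and II pass electrons from NADH and succinate to ubiquinone, complex III hands them to cytochrome c, and complex IV passes them to oxygen. Complexes I, III and IV pump protons, and complex V uses the returning protons to make ATP. Most subunits are encoded in the nucleus and are often described as expressed together, and in mammals several subunits of complex IV exist in a widely expressed form and a form of heart and skeletal muscle. The embryonic heart shifts towards oxidative metabolism as its mitochondria mature.

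Polyadenylated RNA came from E11.5 ventricles kept in RNAlater, from mice of a mixed background, and the labels name no treatment. The Hand1 knockout (2 libraries) was Nkx Cre +/- with H1flox/flox, so that it carried the Cre allele and floxed Hand1 on both chromosomes. Flox controls (2 libraries) were Nkx Cre wt with H1flox/flox and lacked the Cre, and Cre controls (3 libraries) were Nkx Cre +/- with wild-type Hand1. Both knockout libraries and flox control replicate 2 have identifiers that start with NT, and the other 4 libraries do not. The labels do not say what this marks, and in the comparison with Cre controls it cannot be told apart from the genotype. The labels do not say whether a library is 1 embryo or a pool, nor which embryos shared a litter. P-values therefore measure only the spread between these libraries, and in whole ventricles fewer cells of a type and less RNA per cell cannot be told apart.

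Total counts lay between 18975283 and 28346700. Hand1, a transcription factor of the left ventricle, was read at 1.29 and 1.14 CPM (counts scaled to library size by the TMM method) in replicates 1 and 2 of the knockout. It stood at 34.1 and 47.6 CPM in flox controls and 94.7, 66.3 and 82.6 CPM in Cre controls, so the control groups did not overlap. All 10 cardiomyocyte markers were measured, with a summed level of 30513 and 18688 CPM in knockout replicates 1 and 2 and 23178 to 33357 CPM in the controls. The 8 measured erythroid markers of 9 summed to 3029 and 14222 CPM in knockout replicates 1 and 2 and to between 3751 and 8236 CPM in the controls. The 8 endothelial markers summed to 1130 and 631 CPM in knockout replicates 1 and 2 and to 1229 to 1505 CPM in the controls. The 5 fibroblast markers summed to 1404 and 344 CPM in these replicates and to 1244 to 1763 CPM in the controls, so that replicate 1 lay inside the control range. The part of other cell types in the results below was not tested. In the subunit genes knockout replicate 2 lay far from the rest, and results are therefore given per library, and with and without it.

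Control ventricles expressed these genes well above the usual gene. The median subunit gene stood at 190.9 RPKM (CPM per 1000 bases of the deposited summed exon length) over the 5 controls, against 9.62 RPKM for all genes tested. Complex V held the highest levels: Atp5b, the catalytic beta subunit, at 1390 ± 211 RPKM (SD, n = 5 controls), Atp5g3, which encodes the c subunit of the rotor, at 865 ± 53.8 and Atp5a1, the alpha subunit, at 834.5 ± 135. The SDs of Atp5g3 and Atp5a1 overlapped, so these 2 cannot be ordered by their spread. Median levels were 146.9 RPKM in complex I, 206 in complex II, 269.9 in complex III, 306 in complex IV and 297 in complex V. Cycs, the mobile carrier cytochrome c, stood lower, at 32.8 ± 10.16 RPKM. The lowest 2 members were Ndufa4l2, a paralog of Ndufa4, at 3.99 ± 1.02 RPKM and Atp5l, the g subunit of the ATP synthase, at 3.56 ± 1.87.

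**Figure D1:**
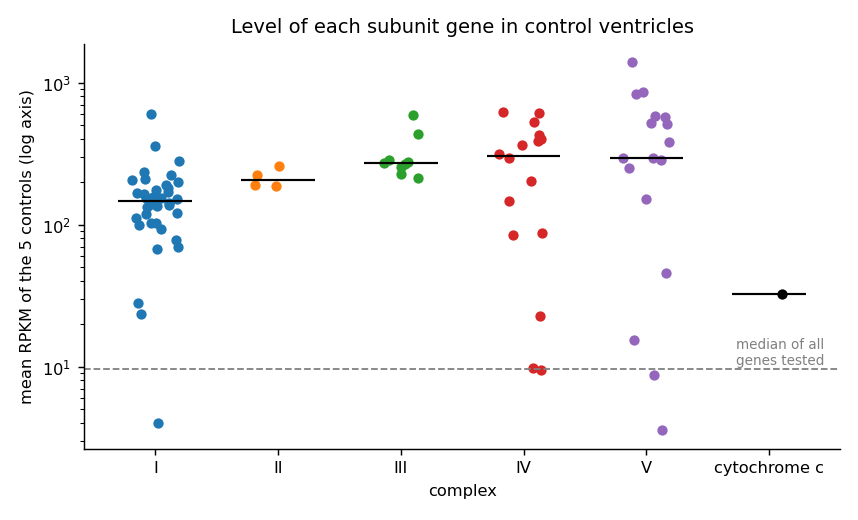
Mean RPKM of each subunit gene over the 5 control libraries (log axis), by complex, with 1 point a gene, a bar at the median of the complex and a dashed line at the median of all genes tested (9.62 RPKM). Most members lie far above the dashed line, and Atp5l, Atp5s and a few isoforms lie near or below it.

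Promoter sequence was looked at because many of these genes are known to be targets of nuclear respiratory factor 1 (NRF-1), of the ETS factor GABP and of YY1. RefSeq promoters (build GRCm38.p6, 250 bases before to 50 after the start) were matched for 68 of the 83 members, giving 74 promoters. The NRF-1 core GCGCATGCG, searched on both strands, was present in 9 of 74 (12.2%), against 1.75% of all 32851 promoters and 3.43% of the promoters of tested genes. The GABP core CCGGAAG was in 16 (21.6%, against 8.86% and 16.3%) and the YY1 core AAGATGGC in 12 (16.2%, against 2.75% and 4.12%). TCAAGGTCA, which estrogen-related receptors bind, was in 2 (2.70%, against 0.423% and 0.272%). The GABP core ends in the letters AAG that begin the YY1 core, and the NRF-1 core overlaps its own reverse complement, so matches can share letters. A match is a run of letters, not a measured binding site.

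The 120 bases before the start of 5 genes follow, 5′ to 3′ on the gene's strand, with matches to these motifs in capitals. Cycs and Ndufa8 are shown for an NRF-1 core, Cox6a1 and Cox8b as the widely expressed and the muscle form of different subunits, and Cox7b for the largest fitted log2 change of the set against either control group. They lie at chr6:50566570-50566689 (minus strand), chr2:36049339-36049458 (minus), chr5:115348959-115349078 (minus), chr7:140900447-140900566 (minus) and chrX:106015580-106015699 (plus).
Cycs: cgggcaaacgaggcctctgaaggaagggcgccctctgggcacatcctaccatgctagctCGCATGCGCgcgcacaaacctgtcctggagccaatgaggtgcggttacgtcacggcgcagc
Ndufa8: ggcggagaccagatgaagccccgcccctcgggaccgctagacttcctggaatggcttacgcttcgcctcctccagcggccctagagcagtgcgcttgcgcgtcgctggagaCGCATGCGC
Cox6a1: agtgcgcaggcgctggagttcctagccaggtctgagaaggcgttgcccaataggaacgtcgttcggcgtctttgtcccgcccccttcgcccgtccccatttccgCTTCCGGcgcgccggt
Cox8b: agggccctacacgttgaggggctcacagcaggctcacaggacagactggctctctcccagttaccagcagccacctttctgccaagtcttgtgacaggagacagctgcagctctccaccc
Cox7b: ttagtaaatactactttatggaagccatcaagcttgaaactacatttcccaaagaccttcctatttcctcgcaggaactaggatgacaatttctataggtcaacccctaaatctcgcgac
The capitals in Cycs and Ndufa8 are the NRF-1 core read on the other strand, and those in Cox6a1 the GABP core on the other strand. The Cox8b and Cox7b windows hold none of the 4 motifs.

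The subunit genes differed more between the 2 knockout libraries than between knockout and control. Their summed level was 23190 CPM in knockout replicate 1 and 47504 in replicate 2. It was 21534 and 18379 CPM in flox control replicates 1 and 2, and 20153, 20640 and 18286 CPM in Cre control replicates 1 to 3. Both knockout libraries were thus the highest of the 7, replicate 2 by a wide margin and replicate 1 by less than the difference between the 2 flox controls. As a share of all counts, the set took 2.34% and 4.16% in the knockout and between 1.89% and 2.27% in the controls.

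Gene by gene, the deviation was the log2 CPM of a library minus the mean log2 CPM of the 5 controls. The median member deviated by 0.12 in knockout replicate 1 and 1.44 in replicate 2. It deviated by 0.35 and -0.18 in flox control replicates 1 and 2, and by -0.01, -0.03 and -0.12 in Cre control replicates 1 to 3. The pooled SD of these medians within groups was 0.50. In replicate 2, 70 of 83 members lay above all 5 controls and 7 below, where 40.6% and 42.3% of all genes tested did so. Most members are short, and short genes of any kind were mostly above the controls in this library. Under 500 bases 15 of 15 members and 132 of 138 of all genes were above. From 500 to under 700 bases it was 24 of 25 and 212 of 230. From 700 to under 1000 bases it was 12 of 14 and 464 of 537, and from 1000 to under 1500 bases 11 of 13 and 907 of 1307. In replicate 1, 29 members lay above all controls and 3 below, against 24.7% and 27.6% of all genes. Members that were high in replicate 2 were mostly also high in flox control replicate 1 (r = 0.90 over 83 genes, which share a control mean and library depth), whereas the 2 knockout replicates had r = -0.39.

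**Figure D2:**
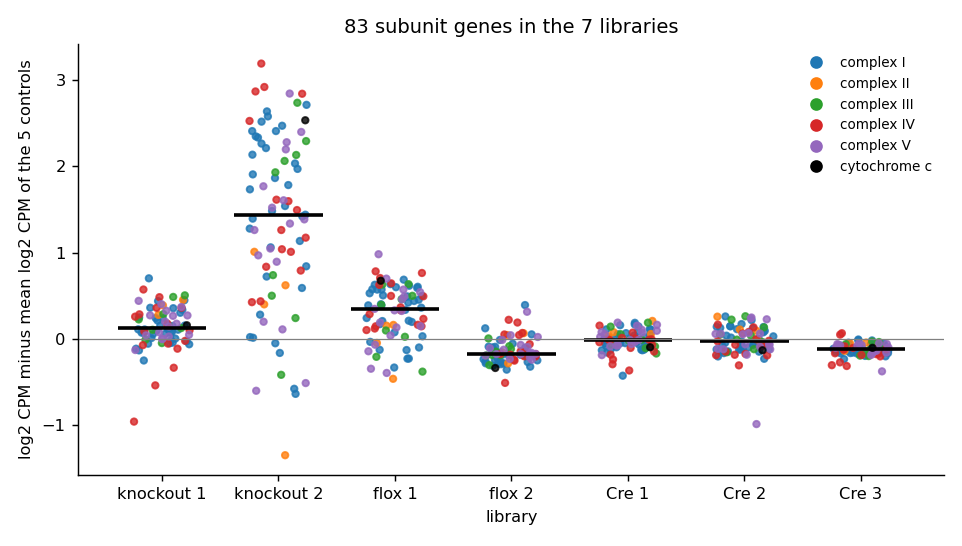
Deviation of each of the 83 subunit genes (log2 CPM minus the mean of the 5 controls) in the 7 libraries, coloured by complex, with a bar at the median. Knockout replicate 2 has a median of 1.44 and a spread from -1.35 to 3.19, while the other 6 medians lie between -0.18 and 0.35.

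Most subunit transcripts are short, and length went with the deviation. The median member was 727 bases long, against 2993 for all genes tested. This summed exon length can exceed that of any annotated coding transcript, as for Ndufa11 (2661 bases against 918) and Ndufa7 (1201 against 528). In knockout replicate 2 longer members had lower deviations (r = -0.61 with log2 length, n = 83 genes), and so did longer genes over all those tested (r = -0.43). The members under 500 bases (n = 15) had a median of 2.28 in this library, and all genes of that length 1.94. At 2000 bases or more the medians were -0.24 for members (n = 6) and -0.28 for all genes. Between these ends, members of 700 to under 1000 bases had a median of 1.01 against 1.11 for all genes, and those of 1000 to under 1500 bases 1.01 against 0.58. Members thus lay near other genes of their length in some classes and above them in others.

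In flox control replicate 1 longer members were also lower (r = -0.59, and -0.13 over all genes) on a smaller scale, with 0.50 under 500 bases for members and for all genes. In knockout replicate 1 the members went the other way (r = 0.34), while over all genes r was -0.18. The members also had a positive r in flox control replicate 2 (0.27) and in Cre control replicates 1 to 3 (0.39, 0.395 and 0.44). After a smooth length trend over all genes was taken out, the median member deviated by 0.18 in knockout replicate 2 and 0.10 in replicate 1. How RNA quality, depth or library preparation bear on the length trend was not tested.

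**Figure D3:**
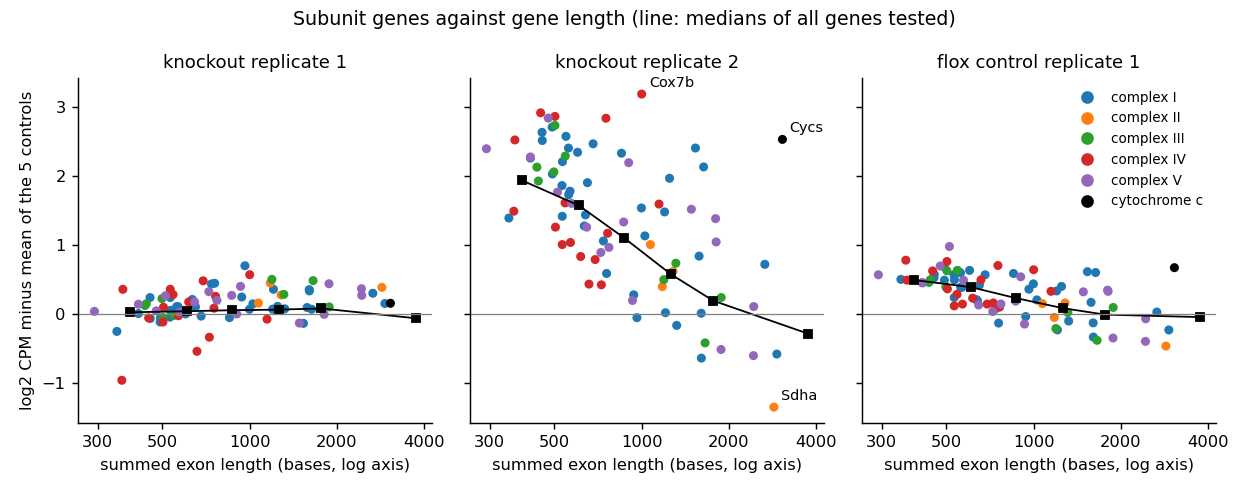
Deviation of the subunit genes (log2 CPM minus the mean of the 5 controls) against summed exon length (log axis) in both knockout libraries and flox control replicate 1, coloured by complex. The black line joins the medians of all genes tested in 6 length classes; members follow it in knockout replicate 2, where Cycs and Cox7b lie far above it and Sdha below.

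Knockout and flox controls share the floxed Hand1 alleles, and knockout and Cre controls share the Cre. In edgeR's quasi-likelihood test with all 7 libraries, 0 of 83 members passed an adjusted p of 0.05 against flox controls or against Cre controls (0.0146% of all genes passed in each), or between the control groups (0% of all genes). At an unadjusted p under 0.05 edgeR found 8, 46 and 0 members, all of them higher in the knockout. The share of all genes at this unadjusted threshold is not given, here or for the unadjusted counts below. Such counts are therefore a description and cannot be read against the other genes. The median log2 change of the members was 0.82 against flox controls, 0.96 against Cre controls and 0.16 for flox against Cre controls, while the medians of all genes lay between -0.00 and 0.02. Each pair of comparisons shares a group of libraries, so these values are not independent.

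DESeq2 called 2 members higher against flox controls, Ndufs7 and Cyc1 (0.671% of all genes), and 5 higher against Cre controls, Cox7b, Cox5a, Cox7a1, Cox7a2 and Atp5j2 (1.6% of all genes). It called 0 lower in both (1.53% and 2.45% of all genes) and 0 between the controls (0.533% of all genes in either direction), and at an unadjusted p under 0.05 it found 0 members lower in the knockout and 0 different between the controls. The limma-voom test called 0 in all 3 comparisons, with 8, 13 and 0 members at an unadjusted p under 0.05. Without any 1 of the 5 controls, the DESeq2 calls were lost except that of Cox7b. In the authors' deposited table of knockout against Cre controls, 39 of 83 members were higher at a false discovery rate of 0.05 and 0 lower. Of all 13701 genes there, 6.8% were higher and 508 genes were lower.

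The counts turned on which knockout library was used. Without knockout replicate 1, edgeR called 65 members higher and 1 lower against flox controls (26.7% and 28.4% of all genes), and 67 higher and 5 lower against Cre controls (31.9% and 32.4%). The lower members were Sdha in both comparisons, and Ndufs1, Ndufv1, Atp5a1 and Atp5b against Cre controls. With the length trend removed as well, 33 members were higher and 13 lower against flox controls (25.1% and 24.5% of all genes), and 34 higher and 21 lower against Cre controls (30.3% and 30.8%). With the length trend removed and all libraries kept, edgeR called 0 members in both comparisons (0.0146% and 0.0584% of all genes), 5 and 9 at an unadjusted p under 0.05, with medians of 0.21 and 0.15.

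Without knockout replicate 2, edgeR called 0 members (0.336% of all genes against flox and 0.46% against Cre controls), 15 and 7 at an unadjusted p under 0.05, and the medians were 0.048 and 0.20. DESeq2 without this library called 6 members higher against flox controls, Ndufa10, Ndufs7, Cyc1, Uqcrc1, Atp5b and Atp5d (2.86% of all genes), and 2 lower, Cox6a2 and Cox8b (4.27%). Against Cre controls it called Cox7b and Cox5a higher (0.934%). Between the controls it called Cox6a2 and Cox7b higher in flox (1.61%). A single knockout library is assumed in these fits to vary like the other groups.

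A smaller set of subunits lay above every control in both knockout libraries. There were 18 of 83 (21.7%), against 8.19% of all genes tested, and 0 members lay below every control in both, against 11.6% of all genes. The 18 were Ndufa8, Ndufa11, Ndufb10, Ndufs3 and Ndufs7 of complex I, Sdhb, Sdhc and Sdhd of complex II, Cyc1, Uqcrc2 and Uqcrfs1 of complex III, Cox4i1, Cox5a and Cox6a1 of complex IV, and Atp5g1, Atp5g2, Atp5g3 and Atp5o of complex V. They stood 1.07-fold to 1.41-fold above the control mean in replicate 1 and 1.18-fold to 2.51-fold in replicate 2. Length went with membership here too, and all genes tested are mostly longer than the members. Under 500 bases 0 of 15 members were above every control in both libraries, against 4.35% of all genes, and from 500 to under 700 bases 16% against 11.7%. From 700 to under 1000 bases the shares were 50% (7 of 14) and 21.6%, and from 1000 to under 1500 bases 38.5% and 22.5%. From 1500 to under 2000 bases members were at 10% and all genes at 16.8%, and at 2000 bases or more 1 of 6 members (16.7%) and 4.15% of all genes. That member is Ndufa11, whose longest annotated coding transcript is only 918 bases.

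**Figure D4:**
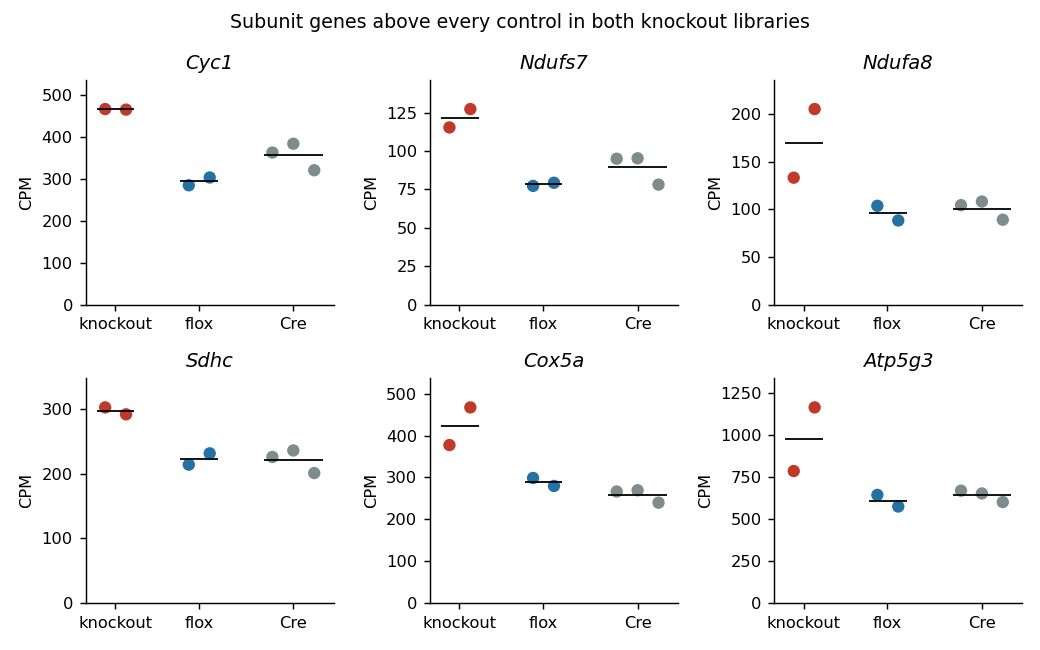
CPM of 6 of the 18 subunit genes that lay above every control in both knockout libraries, by group, with 1 point a library and a bar at the group mean. In each panel both knockout points lie above all 5 control points, for Cyc1 at 466 and 465 CPM against 284 to 383.

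In complex I, the NADH dehydrogenase, 30 of 36 members lay above all controls in knockout replicate 2 and 10 in replicate 1, where 40.6% and 24.7% of all genes did so. The median complex I member was 710 bases long, and of all genes from 700 to under 1000 bases 464 of 537 and 132 of 537 did so. Ndufs7, a core subunit with an iron-sulfur cluster near the ubiquinone site, lies on chromosome 10 from 80249452 to 80256792 (mm10, plus strand). Its level was 115 and 127 CPM in the knockout, 77.3 and 79.3 in flox controls and 95.0, 95.2 and 78.1 in Cre controls. Both knockout libraries were above every control, and the control groups overlapped. The log2 change against flox controls was 0.63 ± 0.19 (SE, edgeR adjusted p = 0.507), and 0.66 ± 0.19 by DESeq2 (adjusted p = 0.0328, and from 0.574 to 0.999 without any 1 control). With the length trend removed the edgeR change was 0.11 ± 0.38.

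Ndufa8, an accessory subunit on the intermembrane side whose promoter is printed above, stood at 133 and 205 CPM in the knockout, 104 and 88.3 in flox controls and 104, 108 and 89.1 in Cre controls. The groups of knockout and control did not overlap, with replicate 2 well above replicate 1. The change against flox controls was 0.82 ± 0.27 (log2, SE, edgeR adjusted p = 0.525). It was 1.10 without knockout replicate 1, 0.49 without replicate 2 and 0.21 with the length trend removed.

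Ndufs1, the largest core subunit, had 442 and 266 CPM in the knockout, 339 and 412 in flox controls and 416, 432 and 395 in Cre controls. Replicate 1 was the highest of the 7 libraries and replicate 2 the lowest. The log2 change was -0.08 ± 0.30 against flox controls (edgeR adjusted p = 0.918) and -0.23 ± 0.28 against Cre controls (edgeR adjusted p = 0.623), and the sign turned positive without replicate 2 (0.25 and 0.12). Ndufv1, which binds NADH, had the same order, with knockout replicate 1 highest and replicate 2 lowest, at 284 and 145 CPM in the knockout and 179 to 269.5 CPM in the controls. Ndufv2, which pairs with Ndufv1, did not have this order, at 259.8 and 1087 CPM in the knockout and 208 to 376 CPM in the controls. Ndufs1 shares exon bases with genes on the other strand (Ino80dos and Eef1b2), and since use of strand is not given in the sources used here, reads of such pairs cannot be told apart.

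Ndufa4, which is named for complex I and was later placed in complex IV, showed the reverse order. Its level was 266 and 1889 CPM in the knockout, 463 and 236 in flox controls and 270.1, 257 and 261 in Cre controls. Replicate 1 lay inside the control range and replicate 2 far outside it. Its paralog Ndufa4l2, a gene induced by low oxygen, stood at 6.14 and 3.61 CPM in the knockout, 4.84 and 4.94 in flox controls and 2.77, 3.44 and 3.25 in Cre controls. The flox controls were above the Cre controls by 0.63 ± 0.27 (log2, SE, edgeR adjusted p = 0.999), and Ndufa4l2 overlaps Shmt2 on the other strand.

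Ndufb8, an accessory membrane subunit and with Ndufa4 among the 2 highest of complex I, stood at 256 and 623 CPM in the knockout and 206 to 263 CPM in the controls. Ndufa10, an accessory subunit and 1 of the 2 members of smallest p among those lower in flox than in Cre controls, stood at 156 and 171 CPM in flox and 204, 213 and 177 in Cre controls (log2 -0.28 ± 0.21, edgeR adjusted p = 0.999). The knockout libraries had 235 and 186 CPM.

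In complex II, succinate dehydrogenase, the 3 smaller subunits lay above every control in both knockout libraries. Sdhc, a membrane anchor, stood at 302 and 292 CPM in the knockout, 214 and 231 in flox controls and 226, 236 and 201 in Cre controls. The knockout replicates differed little from each other and neither overlapped a control. The log2 change was 0.42 ± 0.21 against flox controls (edgeR adjusted p = 0.603) and 0.43 ± 0.19 against Cre controls (edgeR adjusted p = 0.329), so the difference did not pass the test. Removing the length trend gave 0.063 and 0.042. Sdhb, the iron-sulfur subunit, stood at 310.5 and 559 CPM in the knockout and 228 to 309 CPM in the controls. Sdhd, the second anchor, stood at 346 and 439.7 CPM in the knockout and 256 to 319.7 in the controls.

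Sdha, the flavoprotein that oxidises succinate and the third longest member at 2859 bases, was the lowest member in knockout replicate 2. Replicates 1 and 2 of the knockout had 699 and 209.6 CPM, flox controls 387 and 551 and Cre controls 617, 639 and 518 in Cre controls. The knockout thus held both the highest and the lowest value of the 7 libraries. The log2 change against Cre controls was -0.38 ± 0.51 (edgeR adjusted p = 0.653) and turned to 0.26 without replicate 2.

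In complex III, the cytochrome bc1 complex, Cyc1 was nearly equal in both knockout libraries. Cyc1 encodes cytochrome c1, which carries the heme that reduces cytochrome c, and is on chromosome 15 from 76343523 to 76345934 (plus strand). It stood at 466 and 465 CPM in the knockout, 284 and 303 in flox controls and 362, 383 and 320.1 in Cre controls. The 2 knockout values were nearly equal and above all controls, and the flox controls were the lowest group. Against flox controls the log2 change was 0.66 ± 0.22 (edgeR adjusted p = 0.534) and 0.70 ± 0.17 by DESeq2 (adjusted p = 0.00552). The DESeq2 call held without either knockout replicate (adjusted p = 6.21e-04 and 0.00506) and was lost without any 1 control (0.471 to 0.999). Against Cre controls the change was 0.39 ± 0.20 (edgeR adjusted p = 0.347), and flox controls differed from Cre controls by -0.28 ± 0.20 (edgeR adjusted p = 0.999). Removing the length trend gave an edgeR change of 0.31 ± 0.28 against flox and 0.0047 against Cre controls.

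The short subunits of complex III followed replicate 2. Uqcrh, the hinge protein, stood at 313 and 1546 CPM in the knockout and 277 to 489 CPM in the controls. Uqcr10 stood at 211 and 724 CPM, against 165 to 268 CPM in the controls. Replicate 1 lay inside the control range for both, and Uqcrh has 2 named pseudogenes that could share its reads.

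Cytochrome c went against its length. Cycs, which carries electrons from complex III to complex IV and has the longest summed exon length of the set (3059 bases), lies on chromosome 6 from 50562563 to 50566474 (minus strand). It stood at 108 and 563 CPM in the knockout, 155 and 76.8 in flox controls and 90.7, 88.5 and 90.3 in Cre controls. Replicate 2 was the highest of the 7 libraries, and replicate 1 lay between the 2 flox controls. Its deviation in replicate 2 was 2.53, and 2.75 after the length trend was removed, while the other 5 members of 2000 bases or more deviated by -1.35 to 0.72. The 0.72 is that of Ndufa11, whose longest annotated coding transcript is only 918 bases. The log2 change was 1.53 ± 0.74 against flox (edgeR adjusted p = 0.603) and 1.90 ± 0.66 against Cre controls (edgeR adjusted p = 0.324). Without knockout replicate 2 it was -0.084 and 0.29. The authors' deposited table gives Cycs a log2 fold change of 1.87 at a false discovery rate of 0.0048 against Cre controls. Cycs has 2 named pseudogenes, so its level is uncertain.

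In complex IV, cytochrome c oxidase, the largest fitted change of the set was that of Cox7b, a small subunit encoded on the X chromosome from 106015700 to 106022450 (plus strand). It stood at 454 and 2793 CPM in the knockout, 477 and 356 in flox controls and 259, 247 and 246 in Cre controls. Both knockout libraries and both flox controls were above every Cre control, and knockout replicate 1 lay between the flox controls. Against Cre controls the log2 change was 2.70 ± 0.69 (edgeR adjusted p = 0.281) and 2.72 ± 0.66 by DESeq2 (adjusted p = 0.00271, and 0.0051 to 0.0387 without any 1 control). Without knockout replicate 2 it was 0.88 (DESeq2 adjusted p = 5.92e-04), and flox controls then lay above Cre controls by 0.74 ± 0.15 (DESeq2 adjusted p = 2.61e-04). The change against flox controls was 1.96 ± 0.77 (edgeR adjusted p = 0.583) and 0.14 ± 0.21 without replicate 2.

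Embryo sex was not balanced between the groups, and Cox7b, Ndufa1 and Ndufb11 are on the X chromosome. Xist, expressed from the inactive X of females, stood at 488 and 1638 CPM in the knockout, 1.21 and 800.4 in flox controls, and 0.423, 707 and 0.415 in Cre controls. The part of sex in these values was not tested.

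Cox5a, a matrix-side subunit, lay above every control in both knockouts. The gene is on chromosome 9 from 57521232 to 57532426 (plus strand) and overlaps the predicted gene Gm26631 on the other strand. It stood at 377 and 467 CPM in the knockout, 299 and 279.7 in flox controls and 266, 269 and 239.7 in Cre controls. The change against Cre controls was 0.71 ± 0.21 (log2, SE, edgeR adjusted p = 0.323) and 0.73 ± 0.17 by DESeq2 (adjusted p = 0.00219, and 0.125 to 0.356 without any 1 control). Without replicate 2 the DESeq2 change was 0.57 ± 0.16 (adjusted p = 0.0156), and with the length trend removed and all libraries kept the edgeR change was 0.02 ± 0.32.

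In other small subunits of complex IV replicate 2 was high and replicate 1 lay inside the control range. Cox7a2, the widely expressed form of subunit 7A, stood at 284 and 1916 CPM in the knockout, 436 and 226 in flox controls and 241, 241 and 238 in Cre controls, and its muscle form Cox7a1 at 40.6 and 183 CPM, with 27.8 to 44.5 CPM in the controls. Their log2 changes against Cre controls were 2.20 ± 0.74 and 1.93 ± 0.58 (edgeR adjusted p = 0.324 for both). By DESeq2 the adjusted p was 0.0455 for Cox7a2 and 0.0314 for Cox7a1. Without knockout replicate 2 the changes were 0.26 and 0.50 by edgeR, and the DESeq2 adjusted p was 0.845 and 0.398. Cox6c and Cox7c had 178 and 84.8 CPM in replicate 1, inside their control ranges of 168 to 328 and 76.6 to 136 CPM, and 1411 and 668 CPM in replicate 2. Cox6b1, the usual form of subunit 6B, stood at 333 and 745 CPM in the knockout and 269.7 to 401 CPM in the controls.

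Isoform shares compare genes within a library, as a share of the summed RPKM of a family. Cox6a2, the heart and muscle form of subunit 6A, took 15.4% and 18.6% of the Cox6a total in the knockout, 30.6% and 30.2% in flox controls and 21.7%, 22.6% and 22.6% in Cre controls. The 3 groups did not overlap, with the knockout lowest and the flox controls highest. With 2 against 2 and 2 against 3 libraries an exact two-sided permutation test cannot go below p = 0.333 and 0.2, and the shares are given as a description. Cox6a2 itself stood at 65.2 and 128 CPM in the knockout, 134 and 108 in flox controls and 77.3, 89.4 and 76.8 in Cre controls, and Cox6a1 at 291 and 455 CPM against 203 to 248 CPM in the controls. The groups overlapped for Cox6a2, and both knockout libraries were above every control for Cox6a1.

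Against flox controls the log2 change of Cox6a2 was -0.32 ± 0.34 (edgeR adjusted p = 0.728). It was -0.88 ± 0.18 without knockout replicate 2 (edgeR adjusted p = 0.0882, DESeq2 -0.87 ± 0.21 with adjusted p = 0.0017) and 0.084 without knockout replicate 1. With the length trend removed it was -1.04 ± 0.21 (edgeR adjusted p = 0.392). Cox6a2 lies on chromosome 7 from 128205435 to 128206366 (minus strand) and shares exon bases with Itgad on the other strand, so its counts are uncertain by that overlap.

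Cox6a2, Cox8b and Cox4i2 were the 3 members of the whole set below every control in knockout replicate 1, whereas the muscle form Cox7a1 was not low: its share of the Cox7a total was 19.6% and 15.2% in the knockout and 15.1% to 17.3% in the controls. Cox8b, the muscle form of subunit 8, stood at 4.05 and 22.5 CPM in the knockout, 13.7 and 8.20 in flox controls and 6.15, 6.98 and 6.57 in Cre controls. Its share of the Cox8 total was 1.71% and 3.70% in the knockout, 5.55% and 4.85% in flox controls and 3.08%, 3.37% and 3.55% in Cre controls. The knockout replicates fell on either side of the Cre controls and both were below the flox controls. Without replicate 2 the DESeq2 change of Cox8b against flox controls was -1.41 ± 0.36 (adjusted p = 0.005), and Cox8b is among the shortest members, at 363 bases.

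Cox4i2, a form of subunit 4 found in lung and induced by low oxygen, took 1.05% and 0.949% of the Cox4 total in the knockout and between 1.43% and 1.73% in the controls. Both knockout libraries were below all 5 controls. Cox4i2 stood at 5.59 and 9.51 CPM in the knockout and 6.49 to 7.92 CPM in the controls, while Cox4i1, the usual form, stood at 553 and 1044 CPM against 425 to 497. Shares of Cox6b2 (1.124% to 1.70% in all 7 libraries) overlapped between the groups.

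**Figure D5:**
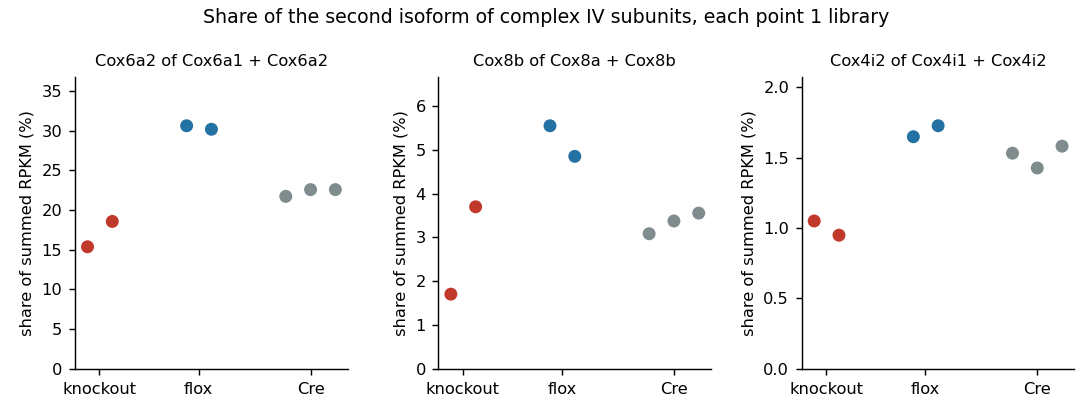
Share of Cox6a2, Cox8b and Cox4i2 in the summed RPKM of their family (percent), by group, with 1 point a library. For Cox6a2 the knockout lies at 15.4% and 18.6%, below the Cre controls at 21.7% to 22.6% and the flox controls at 30.2% and 30.6%.

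In complex V, the ATP synthase, the beta and alpha subunits were low in replicate 2, while the short genes Atp5j2 and Atp5k were high. Atp5b stood at 3509 and 1812 CPM in the knockout, 2033 and 2624 in flox controls and 2895, 3047 and 2458 in Cre controls. Atp5a1 showed the same order, at 2590.1 and 1321 CPM in the knockout and 1524 to 2346 CPM in the controls. For both, replicate 1 was the highest of the 7 libraries and replicate 2 the lowest.

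Atp5j2, the f subunit in the membrane, stood at 279 and 1940.4 CPM in the knockout, 438 and 229.9 in flox controls and 237, 248 and 243 in Cre controls. Its log2 change against Cre controls was 2.19 ± 0.74 (edgeR adjusted p = 0.324, DESeq2 adjusted p = 0.0479 and 0.0611 to 0.240 without any 1 control). Without knockout replicate 2 it was 0.22 (DESeq2 adjusted p = 0.878). Atp5k, the e subunit and the shortest member at 292 bases, stood at 149.99 and 769.7 CPM in the knockout and 123 to 217 CPM in the controls. In both genes replicate 1 lay inside the control range.

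The c subunit is encoded by 3 genes with the same mature protein. Atp5g3 supplied 82.2% and 76.5% of their summed RPKM in the knockout and 79.9% to 82.0% in the controls. Atp5g3 stood at 784 and 1162 CPM in the knockout, 642 and 573 in flox controls and 667, 651 and 599 in Cre controls, with both knockout libraries above every control. Atp5g1 and Atp5g2 were above every control in both as well, at 159 and 333 CPM and at 33.4 and 71.0 CPM. Atp5l, the g subunit, was counted at least 22 times per library, at 1.99 and 5.78 CPM in the knockout, 3.32 and 2.06 in flox controls and 1.73, 0.788 and 1.245 in Cre controls. Its flox against Cre change of 1.10 ± 0.55 (log2, SE, edgeR adjusted p = 0.999) was the largest fitted change of the set between the controls, and its 2 named pseudogenes make its level uncertain.

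Of the genes that assemble the complexes, 45 of 47 listed were measured and edgeR called 0 against flox or Cre controls (3 and 17 at an unadjusted p under 0.05), with medians of 0.58 and 0.57. Their median deviation was 0.087 in knockout replicate 1 and 0.89 in replicate 2. Without knockout replicate 2 the medians against flox and Cre controls were 0.075 and 0.14, and with the length trend removed 0.31 and 0.22. DESeq2 called Ecsit, an assembly factor of complex I, higher against flox controls (0.671% of all genes), and Ndufaf5, Cox17 and Coa6 higher against Cre controls (1.6% of all genes). The calls of these 3 were lost without any 1 control (lowest DESeq2 adjusted p 0.0787, 0.0567 and 0.0544). Ecsit stood at 50.5 and 48.3 CPM in the knockout, 32.8 and 32.0 in flox controls and 38.2, 39.8 and 32.5 in Cre controls. Both knockout libraries were above every control, as for Cyc1. The log2 change against flox controls was 0.61 ± 0.17 (edgeR adjusted p = 0.462, DESeq2 adjusted p = 0.0363 and 0.640 to 0.999 without any 1 control).

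Among 9 measured genes of 10 that exchange ATP, ADP and phosphate, edgeR called 0 in either comparison (2 in each at an unadjusted p under 0.05). Ckmt2, the creatine kinase of muscle mitochondria, stood at 2.79 and 2.59 CPM in the knockout, 6.08 and 6.21 in flox controls and 5.65, 6.88 and 6.23 in Cre controls. The 2 knockout libraries were close to each other and far below all 5 controls. The log2 change was -1.19 ± 0.20 against flox (edgeR adjusted p = 0.295, DESeq2 adjusted p = 0.00214) and -1.21 ± 0.19 against Cre controls (edgeR adjusted p = 0.142, DESeq2 adjusted p = 1.85e-04). The DESeq2 call against flox controls was lost without any 1 control (0.185 to 0.780), and that against Cre controls held in 2 of 5 such fits (0.0253 to 0.127). DESeq2 also called Slc25a5 higher against flox controls (0.671% of all genes) and Slc25a31 higher against Cre controls (1.6% of all genes). The call of Slc25a5 was lost without any 1 control, and that of Slc25a31 held. Slc25a31, a carrier known from testis, also differed between the controls by DESeq2 (adjusted p = 0.0118), but that call was lost without any 1 control. The ADP/ATP carrier Slc25a5 stood at 571 and 556 CPM in the knockout and 399 to 473 CPM in the controls.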

How the data were processed

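Per the submitters' processing notes, reads were processed with STAR 2.4.2a, featureCounts, Subread 1.5.0 and edgeR on mm10. Annotation, use of strand and handling of multi-mapped reads are not given in the sources used here. The authors deposited raw read counts per gene, a summed exon length in bases, and, for knockout against Cre controls, log2 fold changes with p-values and false discovery rates.

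Groups came from the genotype labels. Counts of the whole table were fitted with edgeR 4.0.16 (R 4.3.3; TMM, filterByExpr, robust quasi-likelihood, a mean per group, all 7 libraries), with Benjamini-Hochberg adjustment over 13695 genes and a threshold of 0.05. TMM factors scaled CPM, RPKM was CPM per 1000 bases of deposited length, and a prior count of 2 was added for log2 CPM. DESeq2 1.42.0 (as the tool alternative), limma-voom (limma 3.58.1), other scalings and filters, libraries left out and a smooth length trend (mgcv 1.9.3, fitted per library on genes over a control mean log2 CPM of 2) were alternatives. The fits were tested on simulated counts that held no length trend and no outlying library. That check therefore does not cover these 2 traits of the data. Total counts of 18975283 to 28346700 give high counts for all but the lowest members (fewest counts 22).

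Members and lists were chosen with earlier results of these data known. Named genes were the 2 highest per complex by RPKM over 7 libraries, Cyc1, Cycs, the isoform families, the 2 smallest p per direction and comparison, the longest and shortest member, and the 2 extremes of each knockout library. Of the other lists, called genes or the 2 smallest p were named. A called gene of these lists is not reported here. Members called by DESeq2 or in fits without a library, above every control in both knockouts, or highest and lowest in level were named after their values were seen, as were Nrf1 and Ppargc1a. The sequences shown were chosen with results known. Overlaps, pseudogenes and coding transcript lengths came from GENCODE vM21 and promoters from RefSeq GRCm38.p6. The labels share no replicate numbers, so no pairing was checked.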

Additional observations from a re-analysis of the deposited data

How the results depend on the processing

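No paired analysis was possible because the labels give no replicate numbers shared between groups. The count of 0 members called by edgeR held in all 3 comparisons under RLE scaling, no scaling factors, no filter on low counts, limma-voom, no robust estimation, the compared groups alone and the length trend removed. With the libraries whose identifiers start with NT it was also 0 against flox controls, but that group then holds 1 library, so this says nothing about stability. DESeq2 gave 2 against flox and 5 against Cre controls. Leaving out each library in turn gave 0 to 66 members with edgeR and 0 to 68 with DESeq2 against flox, 0 to 72 and 1 to 74 against Cre controls, and 0 and 0 to 2 between the controls. Medians ranged from 0.048 to 1.34 (edgeR) and 0.056 to 1.36 (DESeq2) against flox, 0.20 to 1.47 and 0.20 to 1.49 against Cre controls, and -0.12 to 0.37 (edgeR) between the controls. The highest edgeR counts came without knockout replicate 1, a fit that leaves 1 knockout library. A large share of all genes was called in that fit too, as given above. For the highest DESeq2 counts the share of all genes is not given. These counts are therefore a description and do not set the members apart from other genes. DESeq2 without knockout replicate 2 called 8 members against flox and 2 against Cre controls. With library totals alone, the median over all genes was -0.11 and -0.10 and that over the members 0.63 and 0.80. With the length trend removed the medians were 0.21 and 0.15. With it removed and without knockout replicate 1 they were 0.20 and 0.14, with 46 and 55 members called, and without knockout replicate 2 they were 0.13 and 0.10. Of 16 named log2 changes, DESeq2 with all 7 libraries called 7 that the main edgeR fit did not. Of 389 refits of these 16 changes, 17 turned sign. Without knockout replicate 1 Cox6a2 went to 0.084 (DESeq2 0.11) and, with the length trend removed too, Ndufs7 to -0.54, Ndufa8 to -0.15, Cyc1 to -0.062 and Cox5a to -0.60. Without knockout replicate 2 Ndufs1 went to 0.25 against flox (0.26 by DESeq2, 0.21 with length removed) and 0.12 against Cre controls (0.12 and 0.10), and Sdha to 0.26 (0.26 and 0.25). Without flox control replicate 2 Ndufs1 went to 0.10 against flox (DESeq2 0.11). Leaving out single libraries, the edgeR values ran from -0.88 to 0.084 for Cox6a2, -0.50 to 0.25 and -0.64 to 0.12 for Ndufs1 against flox and Cre controls, and -1.50 to 0.26 for Sdha. The causes were not tested. DESeq2 without single libraries and the length trend with a knockout replicate left out were chosen after seeing the data.

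Groups of 2 or 3 libraries limit what any of these tests can call, most of all where the 2 knockout libraries differ. Counts were lowest for Atp5l (22). Exon overlap with other genes was found for 29 of 83 members (25 on the opposite strand), and 5 members have 8 named pseudogenes in all.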

Other observations

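Regulators of mitochondrial biogenesis were measured for 21 of 22 listed genes, and edgeR and DESeq2 called 0 against either control group (at an unadjusted p under 0.05 edgeR found 1 and 4 and DESeq2 2 and 8 against flox and Cre controls). Without knockout replicate 1, edgeR called 9 higher and 5 lower against flox controls, where it called 26.7% of all genes higher and 28.4% lower. Ppara, a nuclear receptor of fatty acid oxidation, stood at 2.76 and 3.13 CPM in the knockout, 4.56 and 4.87 in flox controls and 5.07, 5.91 and 4.38 in Cre controls. Both knockout libraries were below every control, and the log2 change was -0.68 ± 0.23 against flox (edgeR adjusted p = 0.541) and -0.80 ± 0.22 against Cre controls (edgeR adjusted p = 0.304). Ppargc1a, a coactivator of mitochondrial genes, stood at 95.9 and 207.5 CPM in the knockout and 78.8 to 120.3 CPM in the controls. Esrra, an estrogen-related receptor, stood at 70.4 and 94.7 CPM in the knockout and 57.0 to 67.3 CPM in the controls, with both knockout libraries above every control (log2 0.44 ± 0.21 against flox controls, edgeR adjusted p = 0.603). Nrf1, which encodes NRF-1, stood at 45.4 and 37.2 CPM in the knockout and 39.95 to 44.9 CPM in the controls, so that the knockout lay on either side of the controls.

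The 16 genes of pyruvate dehydrogenase and the citric acid cycle, with a median length of 2340.5 bases, deviated by a median of 0.31 (log2) in knockout replicate 1 and -0.19 in replicate 2. This was the reverse order of the median subunit gene. Subunit genes of 2000 bases or more (n = 6) had the same order, with medians of 0.29 and -0.24. EdgeR and DESeq2 called 0 of them in any comparison, and at an unadjusted p under 0.05 edgeR found 0 and DESeq2 3 against each control group. Idh3a, a subunit of isocitrate dehydrogenase, stood at 391 and 397 CPM in the knockout, 298 and 304 in flox controls and 341, 358 and 306 in Cre controls. Both knockout libraries were above every control, and the log2 change against flox controls was 0.39 ± 0.22 (edgeR adjusted p = 0.603). Pdhb, of pyruvate dehydrogenase, stood at 305 and 422 CPM in the knockout and 242 to 295 CPM in the controls.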
